A study of Mus musculus with 6 samples.

Results

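Most of the genes described here encode nuclear subunits of respiratory complexes III and IV and of ATP synthase, together with cytochrome c. They were taken by symbol: every gene whose symbol begins with Uqcr, Cox4 to Cox8 or Atp5, plus Cyc1 and Cycs. This gave 45 of the 24421 gene symbols in the count tables: 9 genes of complex III, 1 of cytochrome c (Cycs), 18 of complex IV and 17 with an Atp5 symbol. Subunits that carry another symbol are not among the 45 genes. The RNA came from 3T3-L1 cells, a mouse line that differentiates into adipocytes in culture. At 2 days after confluence the cells received 870 nM insulin, 5 µM TZD, 1 µM Dex and 500 µM IBMX, and Dex and IBMX were left out from day 3. On day 7 the adipocytes were infected with 100 pfu per cell of an adenovirus carrying LacZ (AdLacZ, control) or a codon-optimized mouse Lmo3 (AdLmo3), and RNA was taken 72 h later. Each group holds 3 libraries from 3 separate infections, and both groups share the cell line, the differentiation cocktail and the virus load. The comparison asks which of these transcripts differ after 3 days of Lmo3 overexpression.

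Complex III (ubiquinol-cytochrome c reductase) passes electrons from ubiquinol to cytochrome c and pumps protons across the inner mitochondrial membrane. Cytochrome c carries the electrons to complex IV (cytochrome c oxidase), which hands them to oxygen, and ATP synthase uses the proton gradient to make ATP. Several subunits of complex IV exist as a widely expressed isoform and a second isoform found mainly in heart, skeletal muscle, lung or testis, and the muscle isoforms Cox7a1 and Cox8b are also known from brown fat. The catalytic core of complex IV, cytochrome b of complex III and a proton channel subunit of ATP synthase are encoded by mitochondrial DNA. No symbol of these mitochondrial genes matched in the tables, so only nuclear subunits are described.

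The 6 libraries held 28035639 to 38332335 counts on genes. A count of 3, taken as the smallest detectable, corresponded to 0.0768 to 0.111 CPM (counts scaled to library size), and such a floor covers counting error only. Levels are CPM after TMM scaling, which aligns the libraries on the bulk of the genes, and a tested gene was called when its adjusted p was under 0.05 (edgeR quasi-likelihood test, Benjamini-Hochberg over 12766 genes). Over all tested genes 4.28% were called, 2.71% higher and 1.57% lower in AdLmo3. Lmo3 itself had 0 counts in all 6 libraries, and the counts therefore gave no check of the virus. The adipocyte identity of the cells was visible in a list of 12 adipocyte markers, such as Adipoq, Fabp4 and Plin1, whose summed level was 21004 to 23023 CPM in AdLacZ and 28149 to 34243 CPM in AdLmo3. Preadipocyte markers summed to 19601 to 23561 CPM in AdLacZ and 18476 to 26765 CPM in AdLmo3. Fewer cells of a type and less RNA per cell cannot be told apart in these bulk libraries.

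The only member called was Cox6a2, and its sequence is shown beside that of its ubiquitous counterpart Cox6a1 because the reads must tell them apart. Cox6a2 lies at chr7:128205435-128206387 on the minus strand and Cox6a1 at chr5:115345642-115348981 on the minus strand (GRCm38, GENCODE). The coding sequences were identical at 64.6% of 291 aligned bases, and their longest shared run was 12 bases, far shorter than the 75-base reads. The 3′ ends of the coding sequences are printed 5′ to 3′, bases 205 to 336 of Cox6a1 and bases 160 to 291 of Cox6a2, with the 37 differing bases of 132 in capitals.
Cox6a1: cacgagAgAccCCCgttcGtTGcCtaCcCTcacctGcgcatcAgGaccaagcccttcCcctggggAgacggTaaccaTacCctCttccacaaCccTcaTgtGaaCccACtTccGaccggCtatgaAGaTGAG
Cox6a2: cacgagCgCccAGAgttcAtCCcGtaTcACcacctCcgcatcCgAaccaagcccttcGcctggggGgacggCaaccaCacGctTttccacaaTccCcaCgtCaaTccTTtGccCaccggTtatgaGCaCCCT
The differences are spread along the whole stretch. None of the 75-base stretches of the Cox6a2 transcript occurs in another annotated transcript. Exons of Itgad, on the opposite strand, overlap Cox6a2, and the strand setting of the counting is not given in the sources used here.

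Cox6a2, the heart and skeletal muscle isoform of complex IV subunit 6a, fell in AdLmo3. The AdLacZ libraries held 294, 430 and 370 counts, or 8.26, 11 and 10.9 CPM. The AdLmo3 libraries held 155, 185 and 102 counts, or 4.18, 5.02 and 3.78 CPM. Every AdLmo3 library thus lay below every AdLacZ library. The mean was 10.1 ± 1.56 CPM in AdLacZ and 4.33 ± 0.636 CPM in AdLmo3 (SD, n = 3 each). The log2 fold change was -1.21 (SE 0.164, 95% interval -1.59 to -0.84), or 0.432 of the control level (edgeR adjusted p = 0.00901). Cox6a2 was called in 12 of 13 alternative analyses, with log2 fold changes between -1.33 and -1.13 and adjusted p-values of 7.83e-09 to 0.0589. The call was lost without AdLacZ replicate 3 (log2 fold change -1.15, adjusted p = 0.0589), where 77 genes in all were called instead of 547. Itgad held 61, 116 and 108 counts in AdLacZ and 92, 89 and 29 in AdLmo3, fewer than Cox6a2 in each library, and was not called (adjusted p = 0.605).

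The level of Cox6a2 was low for the complex. Per kb of transcript it averaged 10.6 ± 4.9 CPM (SD over the 6 libraries), against 583 ± 40 CPM for Cox6a1, and its counts were 2.35%, 3% and 3.47% of those of Cox6a1 in AdLacZ and 1.28%, 1.52% and 1.23% in AdLmo3. This ratio does not depend on the scaling of a library. The groups did not overlap, and the log2 ratio was lower by 1.116 in AdLmo3 (-6.22 ± 0.162 against -5.10 ± 0.284, SD, n = 3), with an exact two-sided permutation p of 0.1, the smallest that 3 against 3 libraries allow (0.6 adjusted over the 6 isoform pairs measured). Cox6a1 was not called (328, 330 and 306 CPM in AdLmo3 against 351, 367 and 314 CPM, log2 fold change -0.10, 95% interval -0.28 to 0.08).

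Markers of striated muscle, the tissue in which Cox6a2 is best known, were near the floor or variable. Of 16 such genes 4 had enough counts to be tested and 0 were called (0 by DESeq2). An unadjusted p under 0.05 was found for 2 of the 4, Acta1 and Ttn, both lower in AdLmo3, beside 20.6% of all tested genes. The summed level of the 16 genes was 12.6, 18.9 and 17.3 CPM in AdLacZ and 24, 17.1 and 11.8 CPM in AdLmo3, with overlapping groups. Ckm, the muscle creatine kinase, had 0 to 2 counts and Myog, a muscle transcription factor, 0 to 1. Acta1, skeletal muscle actin, held 328, 247 and 364 counts in AdLacZ and 280, 69 and 97 in AdLmo3 (log2 fold change -1.003, adjusted p = 0.24), and Ttn, the giant sarcomere protein, 18, 21 and 16 against 4, 12 and 7 (-1.13, adjusted p = 0.166). The groups did not overlap for Ttn, at 0.472 to 0.538 CPM in AdLacZ and 0.108 to 0.326 CPM in AdLmo3, but did for Acta1. The estimates of the tested markers other than Acta1 and Ttn had the opposite sign. Mb, myoglobin, held 82, 435 and 179 counts in AdLacZ and 590, 508 and 175 in AdLmo3 (0.95, adjusted p = 0.347), and Tnnt3, fast skeletal troponin T, 7, 13 and 5 against 2, 12 and 15 (0.36, adjusted p = 0.822). Acta1 was called in 1 of the 6 analyses that leave out a library. The part of these genes in the Cox6a2 result was not tested.

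**Figure D1:**
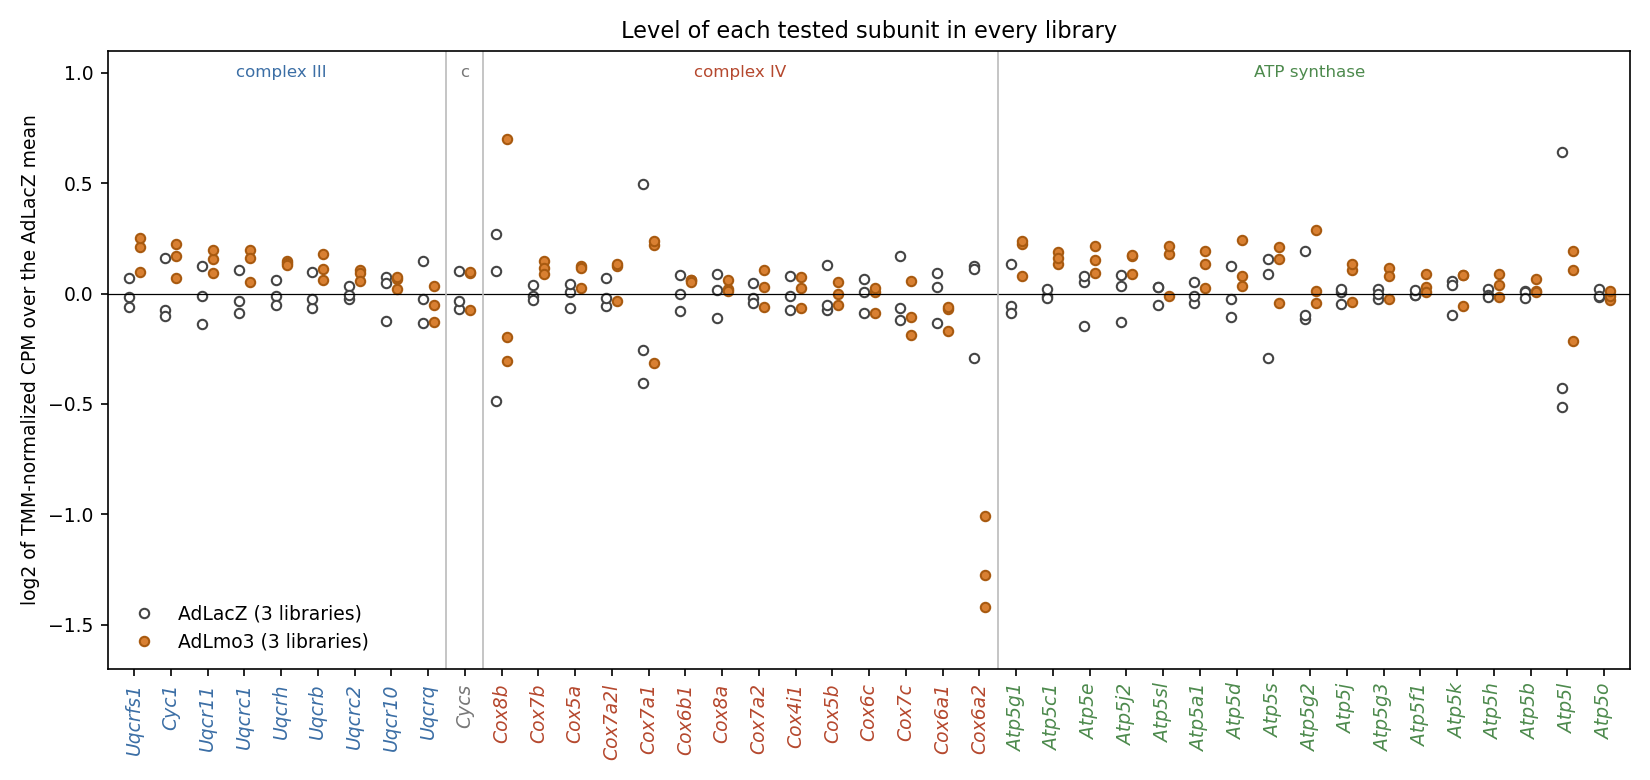
Level of the 41 tested genes in each library, as the log2 of the TMM-normalized CPM over the AdLacZ mean of the gene; open points are the 3 AdLacZ and filled points the 3 AdLmo3 libraries, and genes are ordered by fold change within each complex (c, cytochrome c). The 3 AdLmo3 points of Cox6a2 lie below -1, Cox7a1, Cox8b and Atp5l spread widely within both groups, and nearly all other points lie between -0.3 and 0.3.

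Of the 45 genes 41 had enough counts to be tested. Cox6a2 was the 1 gene called (2.44% of 41, beside 4.28% of all tested genes), and 0 were called higher. Without adjustment, 3 genes had p under 0.05 (7.32%, beside 20.6% of all tested genes), namely Cox6a2, Atp5c1 and Uqcrfs1, and DESeq2 also called Cox6a2 alone. The groups did not overlap for 8 members, or 19.5%, against 26.5% of all tested genes: 7 were higher in AdLmo3 (17.1%, against 13.3%) and 1 was lower (2.44%, against 13.2%). The median log2 fold change of the 41 genes was 0.075, and that of all tested genes was 0.001.

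Most of these genes were measured precisely. For 37 tested genes, leaving out the tissue-restricted isoforms Cox6a2, Cox7a1 and Cox8b and the sparsely counted Atp5l, the SD within groups on the log2 scale had a median of 0.0743, against 0.118 over all tested genes. Their log2 fold changes ran from -0.10 for Cox6a1 to 0.19 for Uqcrfs1, and their 95% intervals together spanned -0.296 to 0.444, that is 0.815 to 1.36 of the control level. None of the 37 was called in any of the 14 analyses run, where the smallest adjusted p was 0.0974. With TMM scaling the estimate was higher in AdLmo3 for 32 of the 37 genes, beside 50.4% of all tested genes. With library totals alone it was higher for 20 of the 37, beside 4457 of all 12766 tested genes. The median of the 37 was then 0.006 and that of all tested genes -0.072. Relative to the median of all tested genes, the median of the 37 was higher by 0.077 with TMM scaling and by 0.078 with library totals alone. As a share of all gene counts, the 45 genes took 1.17% ± 0.04 in AdLacZ and 1.16% ± 0.044 in AdLmo3 (SD, n = 3 each).

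**Figure D2:**
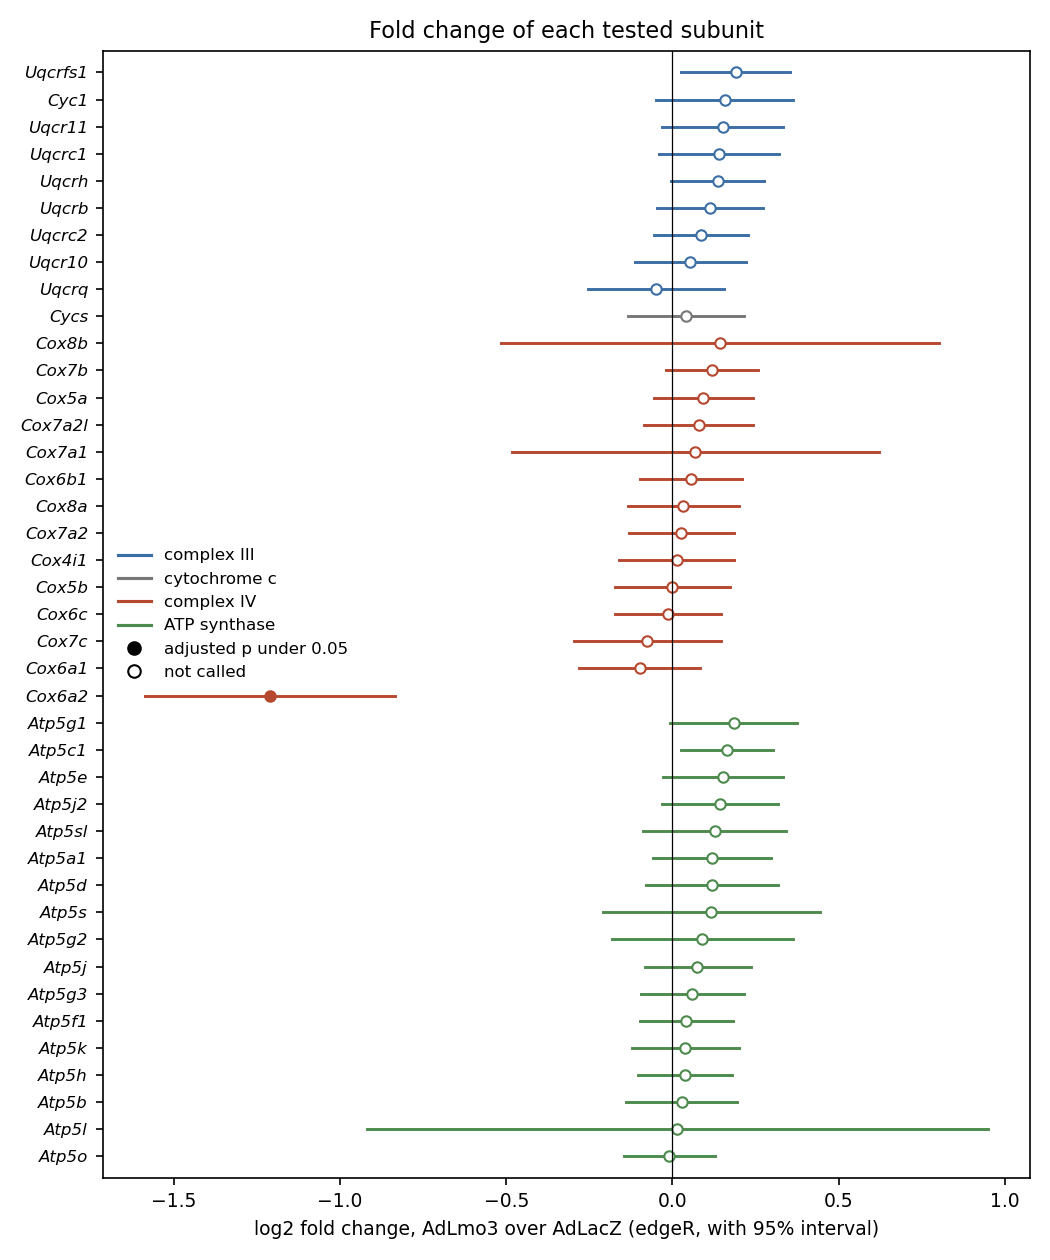
Log2 fold change of AdLmo3 over AdLacZ for the 41 tested genes (edgeR), with 95% intervals, coloured by complex; filled points are called. Cox6a2 at -1.21 is the only filled point, most intervals are narrow and cross 0, and those of Cox7a1, Cox8b and Atp5l are wide.

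Complex III had the highest median of the complexes. All 9 genes were tested and 0 were called (1 had an unadjusted p under 0.05, 0 by DESeq2). With TMM scaling 8 were estimated higher in AdLmo3 (88.9%, beside 50.4% of all tested genes), and 7 with library totals alone. The median log2 fold change was 0.137, and 0.063 with library totals alone. Uqcrfs1, the Rieske iron-sulfur protein, had 255, 271 and 247 CPM in AdLacZ and 299, 307 and 276 CPM in AdLmo3. Its groups did not overlap, and the log2 fold change was 0.19 (SE 0.072, 95% interval 0.025 to 0.355, adjusted p = 0.182). Uqcrh, the hinge protein beside the cytochrome c binding site, had 140, 147 and 136 CPM against 156, 155 and 154 CPM (0.14, SE 0.0608, adjusted p = 0.252). Uqcrc2, a core protein, had 339, 353 and 344 CPM against 372, 368 and 359 CPM (0.09, SE 0.0615, adjusted p = 0.494). In these 3 of the 9 genes each AdLmo3 library exceeded each AdLacZ library, by margins of a few percent. Of all tested genes 13.3% were higher in AdLmo3 without overlap.

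The remaining complex III genes overlapped between groups. Cyc1, the heme protein that reduces cytochrome c, had 350, 413 and 344 CPM in AdLacZ and 415, 431 and 388 CPM in AdLmo3 (log2 fold change 0.16, adjusted p = 0.375). Uqcrq, a small subunit next to cytochrome b, had the lowest estimate of the complex (243, 274 and 225 CPM against 238, 253 and 226 CPM, -0.05, adjusted p = 0.807). Per kb of transcript the levels of complex III genes ran from 160 ± 12 CPM for Uqcrq to 346 ± 18 CPM for Uqcr10, a small subunit, with Uqcr11, another, at 289 ± 24 CPM (SD over the 6 libraries). Uqcr10 and Uqcr11 had log2 fold changes of 0.05 and 0.15 (adjusted p = 0.737 and 0.334), and the subunits Uqcrb and Uqcrc1 had 0.11 and 0.14.

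Cycs, the mobile electron carrier between both complexes, was not called. It had 79.5, 89.4 and 81.4 CPM in AdLacZ and 88.9, 89.3 and 79.2 CPM in AdLmo3, a log2 fold change of 0.04 (SE 0.0755, 95% interval -0.133 to 0.214, adjusted p = 0.816). Per kb of its long transcript its level was 27.1 ± 1.6 CPM, below every gene of complex III. Of its 75-base stretches 26.1% also occur in other annotated genes, among them 4 pseudogenes.

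Complex IV differed from the others in its isoforms. Of its 18 genes 14 were tested, and the median log2 fold change was 0.029 (-0.044 with library totals alone). Leaving out a library moved it between -0.025 (without AdLacZ replicate 3) and 0.073 (without AdLacZ replicate 2), and it was also below 0 without AdLmo3 replicate 2 (-0.003). Its 11 widely expressed tested genes, Cox7a2l included, ranged from -0.098 to 0.119 with a median of 0.027, and 8 were estimated higher and 3 lower. Cox4i1, the regulatory subunit that binds ATP, was the most abundant gene of the complex per kb (972 ± 45 CPM) and had 716, 762 and 684 CPM in AdLacZ and 759, 734 and 689 CPM in AdLmo3 (0.01, SE 0.0755, adjusted p = 0.953). Cox8a followed at 702 ± 33 CPM per kb, with a log2 fold change of 0.03 (adjusted p = 0.854). Cox6b1, which faces the intermembrane space, had a log2 fold change of 0.06 (adjusted p = 0.7), and Cox7a2 one of 0.03 (adjusted p = 0.875). Cox7b was the 1 of the 14 tested complex IV genes that was higher in AdLmo3 without overlap, beside 13.3% of all tested genes. It had 140, 145 and 138 CPM in AdLacZ and 156, 153 and 150 CPM in AdLmo3 (0.12, SE 0.0597, adjusted p = 0.31). Cox7a2l, which joins complexes III and IV into supercomplexes, had 82.8, 90.3 and 84.8 CPM against 93.9, 94.5 and 83.9 CPM (0.08, adjusted p = 0.598). The 4 other widely expressed subunits, Cox5a, Cox5b, Cox6c and Cox7c, had log2 fold changes of 0.09, 0.00, -0.01 and -0.08.

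The other tissue-restricted isoforms of complex IV did not share the pattern of Cox6a2. Cox7a1, a heart, muscle and brown fat isoform, had 36.5, 68.1 and 40.5 CPM in AdLacZ and 56.2, 57 and 38.9 CPM in AdLmo3. Cox8b, of the same tissues, had 22.7, 20.2 and 13.4 CPM in AdLacZ and 30.5, 15.2 and 16.4 CPM in AdLmo3. Both genes varied as much within a group as between groups, with SDs within groups of 0.402 and 0.471 on the log2 scale, and their log2 fold changes were 0.07 (95% interval -0.483 to 0.621) and 0.14 (-0.517 to 0.802). Relative to the widely expressed isoform, Cox7a1 reached 25.7%, 45.6% and 28.8% of the counts of Cox7a2 in AdLacZ and 38.1%, 36.8% and 28.2% in AdLmo3 (exact permutation p = 0.9). Cox8b reached 5.89%, 4.97% and 3.78% of the counts of Cox8a in AdLacZ and 7.86%, 3.8% and 4.26% in AdLmo3 (exact permutation p = 0.8). The lung isoform Cox4i2 had 7 to 9 counts in every library, at most 0.043% of the counts of Cox4i1, and the testis isoform Cox6b2 had 0 to 2 counts. Cox7b2 and Cox8c, also known from testis, had 0 counts in all libraries, which allows up to 3 counts or 0.0768 to 0.111 CPM. These 4 genes were not tested.

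**Figure D3:**
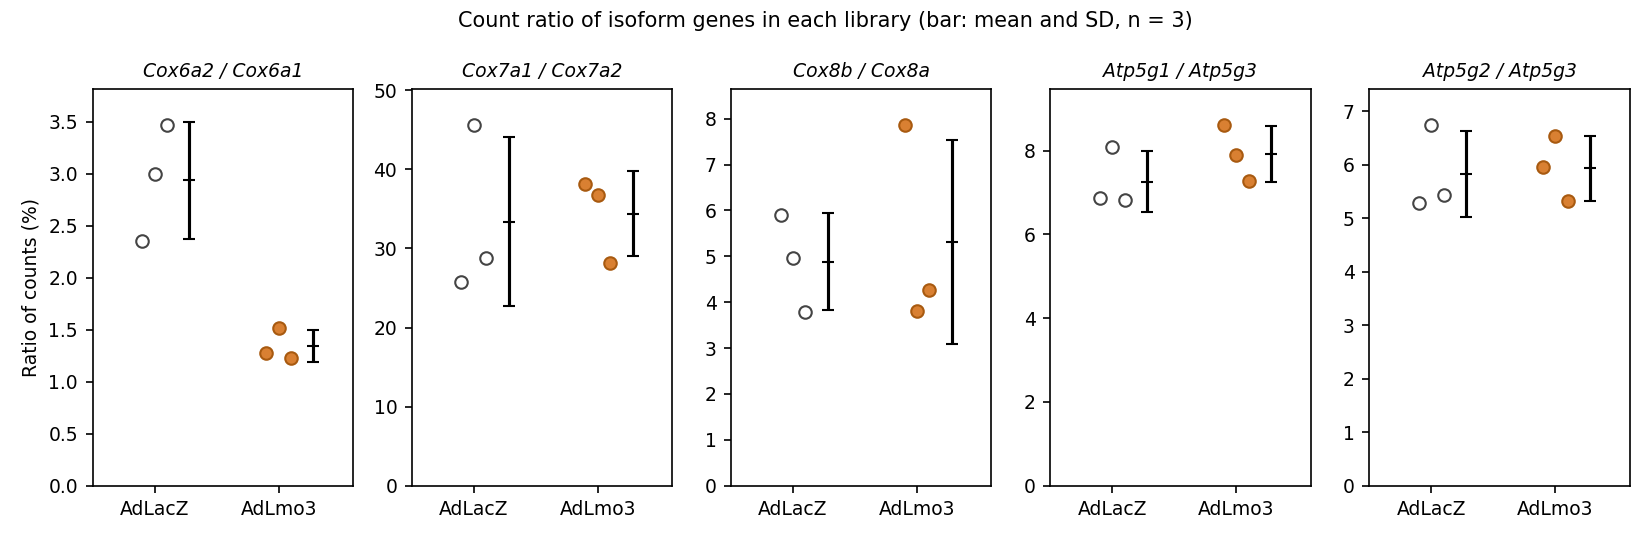
Counts of a restricted or minor isoform gene as a percentage of those of its main isoform gene in each library, for 3 pairs of complex IV and 2 of ATP synthase; points are libraries, and bars give the mean and SD (n = 3). The Cox6a2 to Cox6a1 ratio lies at 2.35% to 3.47% in AdLacZ and 1.23% to 1.52% in AdLmo3, and the groups overlap in the other 4 pairs.

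ATP synthase carried most of the counts of these genes, 0.669% ± 0.013 of all gene counts in AdLacZ and 0.665% ± 0.021 in AdLmo3 (SD, n = 3 each). All 17 Atp5 genes were tested and 0 were called (1 had an unadjusted p under 0.05, 0 by DESeq2). With TMM scaling 16 were estimated higher in AdLmo3 (94.1%, beside 50.4% of all tested genes), and 10 with library totals alone. The median log2 fold change was 0.090 (0.018 with library totals alone, and as low as 0.057 without AdLmo3 replicate 2). In the catalytic head, Atp5b, the catalytic beta subunit, was the most abundant member per kb (1557 ± 30 CPM) and took 24.7% to 26.3% of the counts of all 45 genes. It had 2974, 2973 and 2917 CPM in AdLacZ and 2975, 3093 and 2966 CPM in AdLmo3 (0.03, SE 0.0728, 95% interval -0.140 to 0.195, adjusted p = 0.879). Atp5a1, the alpha subunit that alternates with beta in the head, had 1226, 1308 and 1250 CPM against 1443, 1384 and 1282 CPM (0.12, adjusted p = 0.436). Alpha and beta are present in equal numbers in the enzyme. The Atp5b level per kb was 3.02 ± 0.1 times that of Atp5a1 in AdLacZ (SD, n = 3). In AdLmo3 it was 2.84 ± 0.17 times that of Atp5a1. These ratios rest on the annotated transcripts taken, of 1916 bases for Atp5b and 2471 for Atp5a1. Before division by length the mean levels in AdLacZ were 2954 and 1261 CPM.

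Atp5c1, the gamma subunit and rotor shaft, had the smallest adjusted p among the genes not called. It had 284, 282 and 290 CPM in AdLacZ and 326, 314 and 320 CPM in AdLmo3, groups that did not overlap. The log2 fold change was 0.16 (SE 0.0604, 95% interval 0.025 to 0.302, adjusted p = 0.174), or 1.12 times the control level. Atp5e, the epsilon subunit at the foot of the shaft, had 99, 101 and 86.2 CPM against 106, 111 and 102 CPM (0.15, SE 0.0787, adjusted p = 0.325). Atp5j2, subunit f in the membrane, had 214, 207 and 185 CPM against 227, 228 and 215 CPM (0.14, SE 0.0755, adjusted p = 0.336). These 3 were the only ones of the 17 Atp5 genes without overlap between groups, all higher in AdLmo3, beside 13.3% of all tested genes. Atp5o, the stator subunit known as OSCP, was the lowest of the Atp5 genes in fold change (256, 263 and 257 CPM against 254, 257 and 261 CPM, -0.01, 95% interval -0.146 to 0.128). The subunits Atp5d, Atp5f1, Atp5h, Atp5j and Atp5k overlapped between groups, with log2 fold changes of 0.04 to 0.12. Atp5s and Atp5sl, which carry the symbol but are no core subunits, were low at 6.66 and 6.01 CPM per kb, with log2 fold changes of 0.12 and 0.13. GENCODE lists Atp5sl as Dmac2, an assembly factor of complex I. Usmg5 and 2010107E04Rik, ATP synthase members under other symbols, lay outside the symbol rule. Their log2 fold changes were -0.089 (edgeR adjusted p = 0.533) and 0.037 (adjusted p = 0.809).

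The ring of c subunits is made from 3 genes that encode the same mature protein with different import signals. Atp5g3 had the most counts of the 3, with 461, 448 and 455 CPM in AdLacZ and 448, 493 and 481 CPM in AdLmo3 (0.06, adjusted p = 0.682). Atp5g1 reached 6.82% to 8.09% of the counts of Atp5g3 in AdLacZ and 7.27% to 8.61% in AdLmo3 (exact permutation p = 0.3). Atp5g2 reached 5.29% to 6.74% and 5.32% to 6.53% (exact permutation p = 0.9). These count ratios therefore overlapped between the groups. Atp5g3 shared none of its 75-base stretches with another annotated transcript, whereas Atp5g1 shared 59.6% and Atp5g2 86.9%. The part of shared sequence in the ratios was not tested. Adjusted over the 6 pairs measured, the exact permutation p was 0.9 for each pair other than Cox6a2 and Cox6a1. Atp5g1 had the highest estimate among the Atp5 genes (31.7, 36.2 and 31 CPM against 38.5, 38.9 and 34.9 CPM, 0.19, SE 0.0832, adjusted p = 0.258). The annotated transcripts of Atp5g1 run from 596 to 4715 bases, so that its level per kb is 59.1 or 7.47 CPM depending on the transcript taken.

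Sequence shared with other genes touched some of these values. Of the 45 genes 24 had no 75-base stretch in common with another annotated transcript, and 14 shared more than 10% of theirs, in many cases with pseudogenes. Atp5g2 shared 86.9%, Atp5l 76% and Atp5g1 59.6%, and a read from a shared stretch cannot be placed on 1 gene. Atp5l, subunit g of ATP synthase, had 10 to 23 counts per library, or 0.705 CPM per kb, although its partner subunits e and f reached 178 and 223 CPM per kb. Its stretches occur in 10 other genes, 9 of them pseudogenes. Atp5g2, which shares more, reached 37.3 CPM per kb, and the part of shared sequence in the low count of Atp5l was not tested. The log2 fold change of Atp5l was 0.01 and had a 95% interval of -0.919 to 0.948. Of the 37 tested genes other than Cox6a2, Cox7a1, Cox8b and Atp5l, 13 share more than 10%. Their median level was 170 CPM per kb, against 260 CPM per kb for the other 24.

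**Figure D4:**
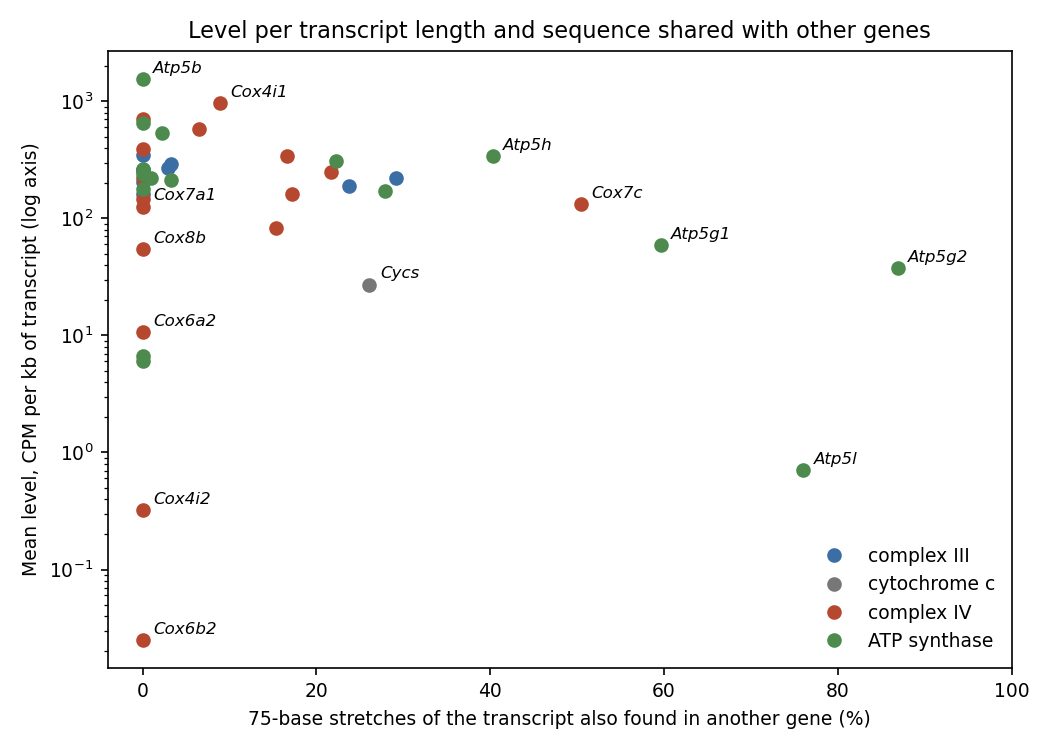
Mean level per kb of transcript (CPM per kb, log axis) of the 43 genes with counts against the percentage of their 75-base stretches found in another annotated gene, coloured by complex. Atp5l lies far below the other Atp5 genes at 76% shared, whereas Cox6a2, Cox4i2 and Cox6b2 are low with 0% shared.

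The respiratory genes are known targets of nuclear respiratory factor 1 (NRF1), of ETS factors such as GABP, of YY1 and of estrogen-related receptors, and the windows around their starts were searched for the cores of these motifs on both strands. RefSeq windows (GRCm38.p6) of 250 bases before to 50 after the start were given for 35 of the 45 genes, 39 windows in all. The NRF1 core GCATGCGC was present in 17.9% of the 39 windows and in 2.71% of all 32851 windows. The ETS core CCGGAAG was present in 25.6% against 8.86%, the YY1 core ATGGCGG in 10.3% against 4.05% and the estrogen-related receptor core AAGGTCA in 10.3% against 4.72%. TATAAA, the TATA box, was found in 7.69% against 13.6%. A match is a description of the letters and not a binding site. Upstream stretches of a complex IV gene and of the cytochrome c gene are printed 5′ to 3′ with the NRF1 core, on either strand, in capitals, at chr5:115348982-115349129 (minus strand) for Cox6a1 and chr6:50566570-50566642 (minus strand) for Cycs.
Cox6a1: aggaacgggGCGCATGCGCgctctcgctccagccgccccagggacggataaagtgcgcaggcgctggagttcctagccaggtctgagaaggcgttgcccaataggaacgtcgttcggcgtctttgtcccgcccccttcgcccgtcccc
Cycs: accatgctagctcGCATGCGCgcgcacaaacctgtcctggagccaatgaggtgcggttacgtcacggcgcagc
The core stands near the 5′ end of both stretches, and in Cox6a1 it can be read on both strands.

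Nrf1 was itself among the called genes. It had 1013, 1207 and 1006 counts in AdLacZ and 889, 849 and 672 in AdLmo3, or 29.7 ± 1.21 and 24 ± 0.91 CPM (SD, n = 3), a log2 fold change of -0.31 (SE 0.0697, adjusted p = 0.0495). This call was not made with the replicate number as a block (adjusted p = 0.0786) or without any 1 of the 6 libraries (adjusted p up to 0.175). The 7 genes with the NRF1 core had a median log2 fold change of 0.041, Uqcr11 at 0.15, Cycs at 0.04 and Cox6a1 at -0.10 among them, and none was called. Of the 15 regulators of respiratory genes in the list, 1 was called higher and 1, Nrf1, lower, beside 4.28% of all tested genes. Without adjustment, 6 of the 15 had an edgeR p under 0.05, beside 20.6% of all tested genes. Pparg, the adipocyte nuclear receptor, was the 1 called higher (0.48, SE 0.0955, adjusted p = 0.0316), and it is also an adipocyte marker of the list used here. It was called in 1 of the 6 analyses that leave out a library, that without AdLmo3 replicate 1 (adjusted p up to 0.108 in the others). Ppargc1b, a coactivator of respiratory genes, had 13.8 ± 3.59 CPM in AdLacZ and 26.6 ± 7.35 CPM in AdLmo3 (0.94, SE 0.228, adjusted p = 0.061). Ppargc1a had 32.9 ± 3.03 and 34.7 ± 2.21 CPM (0.08, adjusted p = 0.668).

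Few or no genes were called among the neighbours of these complexes in the pathway, beside 4.28% of all tested genes. An unadjusted p under 0.05 was found for 20.6% of all tested genes. Of 36 tested genes in the complex I list 0 were called, with a median log2 fold change of 0.056. In that list 6 had an unadjusted p under 0.05, and 2 were called by DESeq2. The list holds Nduf symbols, Ndufa4 and Ndufa4l2 among them, and their membership of complex I was not checked. Of 4 complex II subunits 0 were called (median 0.091, 1 at an unadjusted p under 0.05, 0 by DESeq2). Among factors that assemble the complexes, 0 of 6 for complex III, 0 of 24 for complex IV and 0 of 4 for ATP synthase, its inhibitor Atpif1 included, were called by edgeR, with medians of 0.056, -0.005 and 0.024 (3, 7 and 1 at an unadjusted p under 0.05, and 0, 1 and 0 called by DESeq2). The 77 tested mitochondrial ribosomal protein genes had a median of -0.014, and Mrpl22 was the 1 called (lower, -0.35, adjusted p = 0.0345). Mrpl22 was called in 0 of the 6 analyses that leave out a library (adjusted p up to 0.146) and not with the replicate block (adjusted p = 0.0557). In contrast, 8 of 12 adipocyte markers were called, all higher, with a median of 0.574. That count was 2 to 8 when single libraries were left out, and it was lowest without AdLacZ replicate 3.

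**Figure D5:**
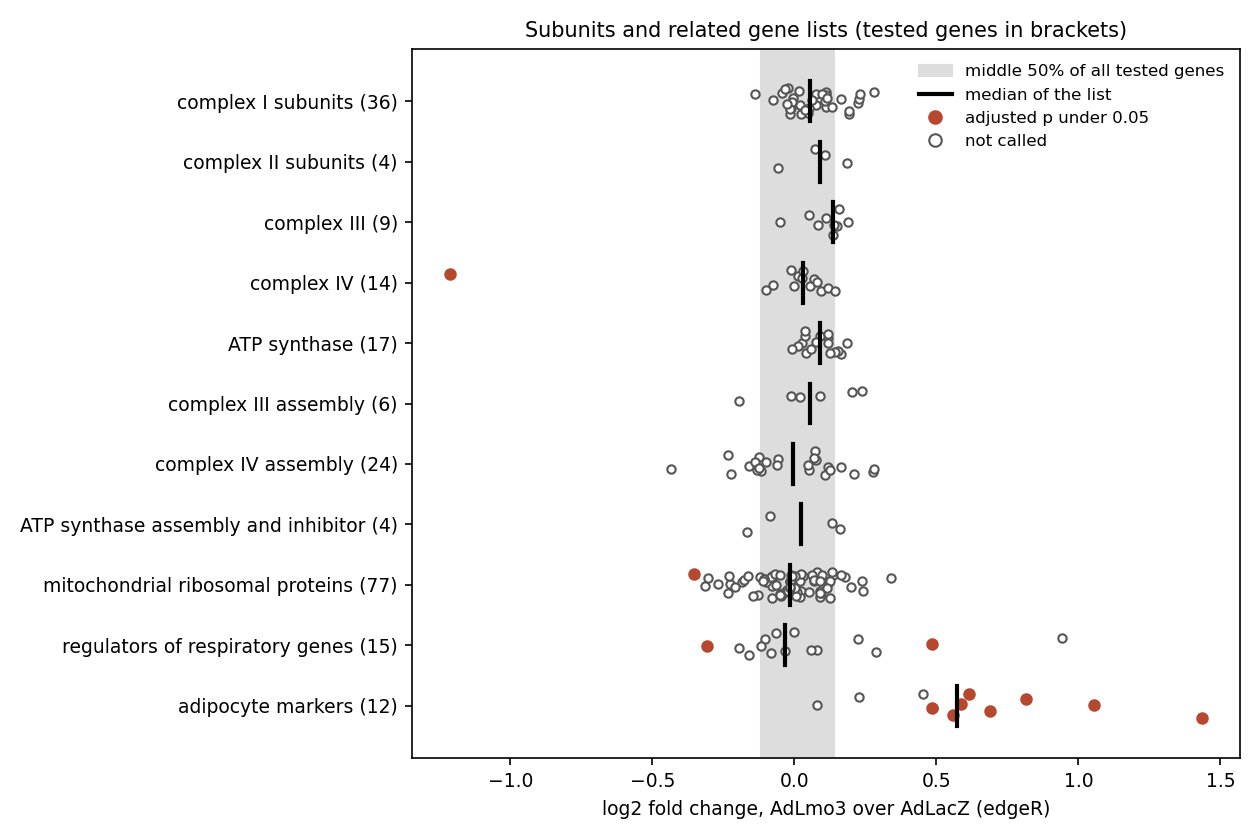
Log2 fold changes of the tested genes of complexes I (Nduf symbols) to IV and ATP synthase, of assembly factors, mitochondrial ribosomal proteins, regulators and adipocyte markers. Filled points are called, black bars are list medians, and the grey band holds the middle 50% of all tested genes. The medians of the respiratory, ribosomal and regulator lists lie between -0.032 and 0.137, and that of the adipocyte markers at 0.574.

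Markers of brown and brite adipocytes were also given for comparison, since Cox7a1 and Cox8b belong to them. Of 11 such genes 5 were tested and 0 were called (0 at an unadjusted p under 0.05, and 0 by DESeq2), and Ucp1, the uncoupling protein, had 0 to 2 counts. Cidea, a lipid droplet protein of brown fat, had 206, 575 and 216 counts in AdLacZ and 453, 342 and 212 in AdLmo3. Like Cox7a1, the brown fat markers Cidea and Elovl3 and the muscle marker Mb were highest among the AdLacZ libraries in replicate 2. These genes were lowest among the AdLmo3 libraries in replicate 3. The other tested genes of both lists, Cox8b, Ppargc1a, Acta1, Ttn and Tnnt3, did not have this order. Ppargc1a was lowest among the AdLacZ libraries in replicate 2 (29.4 CPM) and highest among the AdLmo3 libraries in replicate 3 (37.1 CPM). Of 7 macrophage markers 4 were tested and 0 were called (0 at an unadjusted p under 0.05, 0 by DESeq2), with summed levels of 16.3 to 17.5 CPM in AdLacZ and 13.1 to 15.7 CPM in AdLmo3.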

How the data were processed

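The authors sequenced single reads of 75 bases from total RNA, mapped them to mm10 (GRCm38) and deposited, for each library, raw read counts by gene symbol. The submitters' processing notes name STAR 2.5.0b and DESeq2 1.6.3. The counting program, annotation and strand setting are not given in the sources used here. Reads on no gene (7.15% to 8.94%) or several (0.476% to 0.543%) were left out. Tests used edgeR 4.0.16 under R 4.3.3: low counts were removed by filterByExpr, libraries scaled by TMM, and a quasi-likelihood test with no block was adjusted by Benjamini-Hochberg over 12766 genes. Isoform ratios were compared by exact two-sided permutation (pseudocount 0.5). The members and gene lists were chosen with earlier results of these data known. Genes named were those called in either fit, with and without the replicate block, the extremes of each complex in fold change and level per kb, up to 5 genes per complex without overlap between groups, the isoforms, and Cyc1, Cycs and Cox7a2l. Atp5a1 and genes named from the other lists were chosen after their values were seen. No replicate pair was alike within sampling noise (chi-square per degree of freedom 24.2 to 65). The biological coefficient of variation was 0.119. Alternatives were DESeq2 1.42.0, limma 3.58.1 (voom), other scaling, filters, a replicate block, and leaving out each library or some members. All 45 genes were matched to GENCODE vM21 (Atp5o and Atp5sl through a RefSeq symbol or synonym and position). The transcript taken was the shortest principal protein-coding one with a RefSeq match, and its 75-base stretches were looked up in all transcripts on both strands. The edgeR test was checked on simulated counts.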

Additional observations from a re-analysis of the deposited data

How the results depend on the processing

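Of all alternatives run, the call of Cox6a2 was lost only without AdLacZ replicate 3 (-1.150, adjusted p = 0.0589), where 0 members were called lower, so that the number called lower ranged from 0 to 1 and the log2 fold change of Cox6a2 from -1.335 to -1.127 over the libraries left out. Library totals alone lowered the medians of all members to 0.001, of complex III to 0.063 and of ATP synthase to 0.018, and turned the sign of Atp5b (-0.046), Atp5g3 (-0.015), Atp5l (-0.056), Cox4i1 (-0.060), Cox6b1 (-0.018), Cox7a1 (-0.001), Cox7a2 (-0.046), Cox8a (-0.041), Cycs (-0.032) and Uqcr10 (-0.021), none of them called. That scaling moved the median of all genes from 0.001 to -0.072. Over the libraries left out, the median ranged from 0.048 to 0.1 for all members, 0.097 to 0.166 for complex III, -0.025 to 0.073 for complex IV and 0.057 to 0.103 for ATP synthase. Leaving out single libraries turned the sign of uncalled genes: Atp5g2 (-0.018 to 0.198), Atp5l (-0.178 to 0.497), Atp5o (-0.019 to 0.005), Cox4i1 (-0.023 to 0.054), Cox7a1 (-0.098 to 0.399), Cox7a2 (-0.012 to 0.070), Cox8a (-0.020 to 0.079), Cox8b (-0.246 to 0.328), Uqcr10 (-0.006 to 0.091) and Uqcrq (-0.114 to 0.031). DESeq2 called 1104 genes instead of 547, of which 2 were in the complex I list, 1 in complex IV assembly and 3 in the mitochondrial ribosome. Library totals alone called 767, with 1 in complex IV assembly and 4 in the mitochondrial ribosome. The cause was not tested.

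The deviations of same-numbered libraries correlated by 0.0508, 0.225 and 0.234, all above 0, which does not settle whether the numbers pair the samples. The labels do not say that a number marks a shared day, and the main test used no block. With the replicate block, Cox6a2 remained called (-1.207, adjusted p = 0.0154), 0 mitochondrial ribosomal genes and 1 regulator were called instead of 1 and 2, and 498 genes in all. Genes with few counts, such as Atp5l, Cox4i2 and Cox6b2, are limited by depth.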
